A study of Mus musculus with 32 samples.

Results

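Periostin (Postn), osteonectin (Sparc), thrombospondin 1 and 2 (Thbs1, Thbs2), tenascin C (Tnc), fibronectin (Fn1), fibrillin 1 (Fbn1), lumican (Lum), decorin (Dcn) and biglycan (Bgn) were followed in mouse liver as matricellular proteins, fibre-forming partners and small proteoglycans of the ECM. They were found as the array probes that carry one of these 10 gene names, which gave 12 probes out of 55681, and 9 of the 10 genes were bright enough to be tested among 21290 genes. Postn was chosen by its own values in these arrays, because it is higher after partial hepatectomy (PH) in both Fc-GLP-1 groups. Its values in any group that received Fc-GLP-1 are therefore given as a description with no test, and it was tested only between untreated groups.

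Male C57/BL6 mice, 8 weeks old when the diets began, were fed standard chow (C) or a methionine and choline deficient diet (MCD) for 3 weeks. Mice of the C+Fc-GLP-1 group (chow) and the M+Fc-GLP-1 group (MCD) also received Fc-GLP-1, a long-acting agonist of the GLP-1 receptor, for the last 2 weeks. C and MCD mice had injections of saline as vehicle, and they are called untreated here. Livers were taken at PH, which removed 70% of the liver, or 2 weeks after it with diet and treatment continued. In all, 8 groups of 4 livers were compared on 32 one-colour arrays. Livers after PH could come only from mice that outlived it. The study reports deaths after PH, and better survival with Fc-GLP-1 on either diet, so this selection differed between arms. Its part in the comparisons that use groups after PH was not tested. The study's methods give Fc-GLP-1 at 10 nmol/kg, whereas part of the array labels names a dual GLP1R/GCGR agonist and a daily 4.4 mg/kg, and the drug is called Fc-GLP-1 here. Among the labels of sample source, only those of C+Fc-GLP-1 after PH name a dual agonist, given after PH. Those of M+Fc-GLP-1 after PH state the same treatment as before. Whether the drug differed between these groups after PH cannot be told from the labels. The MCD diet is a model of steatohepatitis in mice that lose weight on it.

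C and MCD before PH shared 1 slide, both Fc-GLP-1 groups before PH shared another, and both Fc-GLP-1 groups after PH shared another. C after PH and MCD after PH each had a slide of their own and were read on the second of 2 scanners. The diet comparisons before PH and under Fc-GLP-1 were therefore made within a slide, and in the other comparisons between groups the slide and the group cannot be told apart. Between 36.2% and 69.1% of probes were well above background on an array, and 4 arrays a group limit the precision. The study describes the tissue removed at PH and the liver collected 2 weeks later as samples of one set of mice in each arm, that is, each diet and treatment. Livers of an arm share numbers in their names at both times, but those numbers also follow the place of most arrays on the slide, and no label states that a number is a mouse. The comparisons over time were fitted without pairing, and a block on the shared number within each arm, added after seeing the data, changed no call among the members.

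Matricellular proteins sit in the matrix without building fibres and bind cell receptors, growth factors and collagen, and they are scarce in healthy adult tissue and made during repair. The small leucine-rich proteoglycans decorin, biglycan and lumican are compact proteins with sugar side chains that bind collagen fibrils and, for decorin and biglycan, TGF-beta. In liver, stellate cells and fibroblasts are the main makers of most of these proteins, whereas hepatocytes secrete plasma fibronectin. In bulk liver RNA, more cells of a type and more RNA per cell cannot be told apart.

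The probes read short stretches of each mRNA, and those that lie in coding sequence are shown because they say which part of the message was measured. The decorin probe (mm9 chr10:96980233-96980292, plus strand) runs over the last codons of the reading frame, with the stop codon at its position 55 in capitals. The thrombospondin 2 probe (mm9 chr17:14804526-14805789, minus strand) and 1 tenascin C probe (mm9 chr4:63674248-63675011, minus strand) span an intron, since their 60 bases cover 1264 and 764 bases of the genome. The biglycan probe lies at mm9 chrX:70738554-70738613 on the plus strand and the second tenascin C probe at mm9 chr4:63643728-63643787 on the minus strand. 
Dcn probe: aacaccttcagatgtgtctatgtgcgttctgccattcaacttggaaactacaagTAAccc
Bgn probe: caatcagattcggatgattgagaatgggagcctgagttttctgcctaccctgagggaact
Thbs2 probe: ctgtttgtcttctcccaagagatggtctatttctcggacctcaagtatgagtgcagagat
Tnc probe across an intron: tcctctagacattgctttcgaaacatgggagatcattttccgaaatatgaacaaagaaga
Tnc second probe: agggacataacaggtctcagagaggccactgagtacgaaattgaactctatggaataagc

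Because Postn was chosen by its level after PH, the 250 bases before the second of its RefSeq starts are shown (GRCm38.p6, chr3:54360857-54361106, plus strand). Capitals mark the motif TATAAA, found by a search of both strands.
Postn promoter: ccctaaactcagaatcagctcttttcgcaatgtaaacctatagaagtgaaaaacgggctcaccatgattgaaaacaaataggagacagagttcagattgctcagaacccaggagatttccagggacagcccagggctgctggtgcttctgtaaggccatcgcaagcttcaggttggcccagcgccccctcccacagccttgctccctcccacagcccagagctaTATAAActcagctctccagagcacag
TATAAA occurs in 12.4% of all 32851 promoter windows of this length and in 4 of the 8 windows of these genes, namely the Postn window shown, that of Thbs2 and both of Tnc. The window at the first Postn start (chr3:54359017-54359266) and those of Sparc, Fbn1 and Bgn hold no match to it. CATTCC and TGANTCA, searched in the same way, are in none of the 8 windows and in 12.6% and 6.75% of all windows, and CANNTG is in 5 of the 8 and 66.2% of all. The Tnc windows overlap in part, so these counts may include the same Tnc site in both. A match is a description of the letters only.

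In the positions of RefSeq on GRCm38, the Dcn gene (chr10:97479500-97518163) lies beside Lum (chr10:97565501-97572703), and the other genes lie apart from each other. Values below are log2 signals minus the 75th percentile of the array, so 0 is the signal at that percentile, and a difference of 1 is a 2-fold change. Signals of different probes were not set against each other. Postn, Sparc, Fn1, Lum, Dcn and Bgn were well above background on every array that measured them, while Thbs1, Thbs2 and Fbn1 were dim on 5 to 7 of the 32 arrays. No member was saturated. The decorin spot was flagged as non-uniform on M+Fc-GLP-1 before PH replicate 1, so that group has n = 3 for Dcn.

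**Figure D1:**
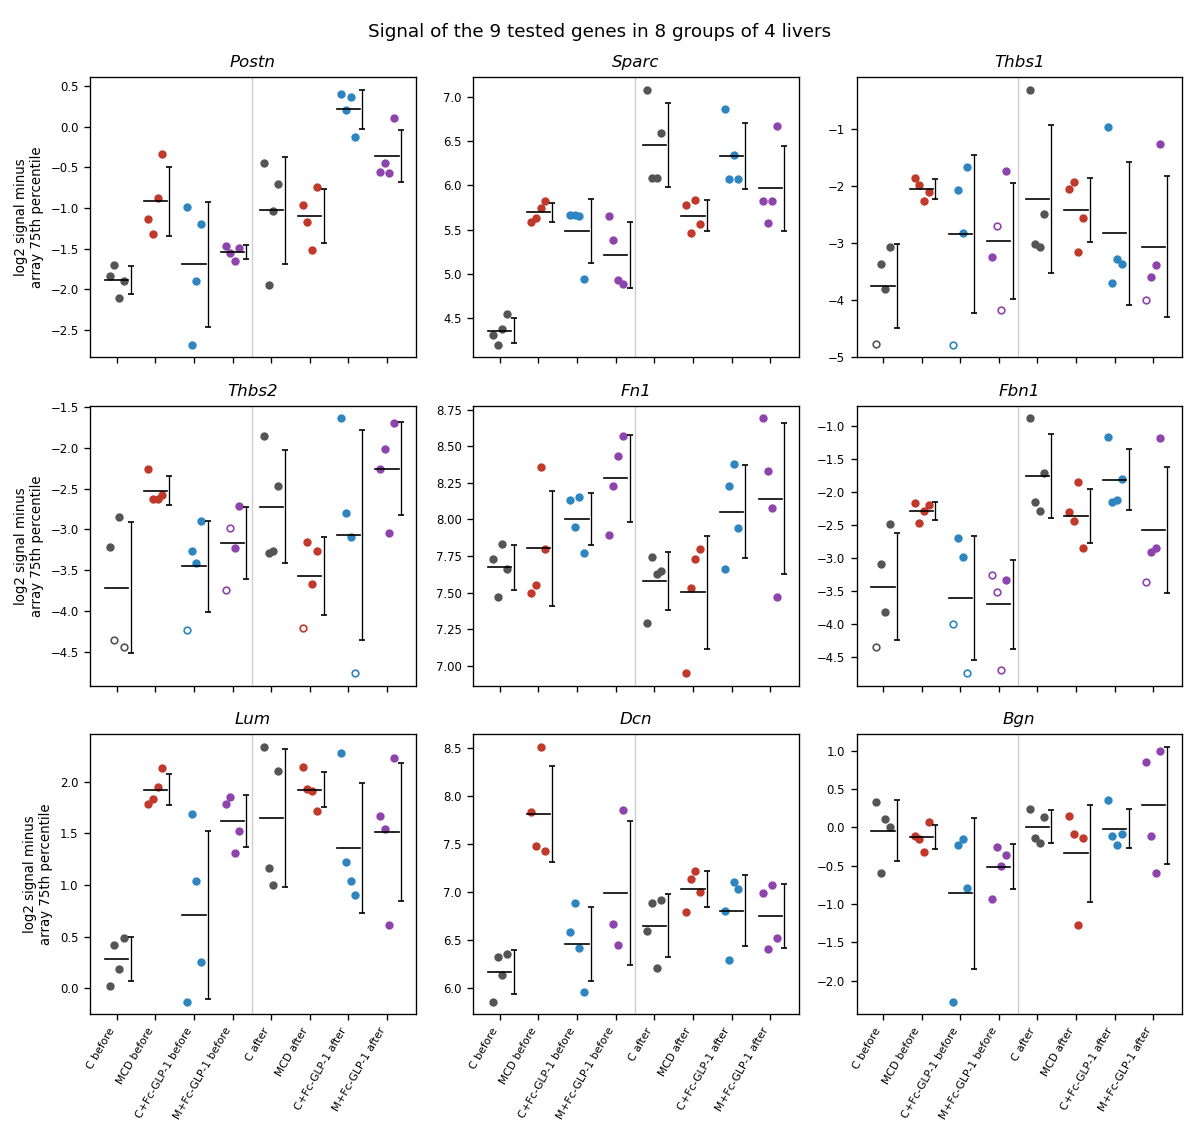
Log2 signal minus the array's 75th percentile (y axis) of the 9 tested genes in each liver, by group (x axis), with groups before PH left of the grey line and those after PH right of it. Each point is 1 liver, open where the probe was not well above background, the bar is the group mean and the whisker its SD; Sparc, Lum and Dcn are lowest in C before PH, and Postn is highest in C+Fc-GLP-1 after PH.

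The first question was what the MCD diet did to these genes in untreated liver. Before PH, MCD mice had higher Dcn, Lum, Sparc and Postn than C mice, by between 1.95 and 3.13 times. Thbs1, Thbs2 and Fbn1 were higher by similar amounts but did not pass the test, and Fn1 and Bgn differed little. Thus 4 of 9 tested members were higher and 0 lower past an adjusted p of 0.05, against 10.9% of all tested genes higher and 26.3% changed in either direction. The median difference over the 9 members was 1.19, beside -0.12 over all tested genes.

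Among the proteoglycans, Dcn binds collagen fibrils and TGF-beta and was 5.86, 6.32, 6.14 and 6.35 in the C livers and 7.83, 7.48, 8.51 and 7.43 in the MCD livers. All 4 MCD livers lay above all 4 C livers. The difference was 1.64 ± 0.29 (SE, limma adjusted p = 0.000136). Lum, which organises collagen fibrils, was 0.02, 0.42, 0.19 and 0.49 in C and 1.79, 1.83, 1.95 and 2.13 in MCD, again without overlap. It differed by 1.64 ± 0.35 (SE, limma adjusted p = 0.00116). Bgn, the closest relative of decorin, was -0.04 ± 0.40 (SD, n = 4) in C and -0.13 ± 0.16 (SD, n = 4) in MCD. Its difference of -0.09 had a 95% interval from -0.84 to 0.67, so a rise of the size seen for Dcn lies outside it.

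Among the matricellular proteins, Sparc binds collagen and acts in its assembly. It was 4.31, 4.20, 4.38 and 4.55 in C and 5.59, 5.63, 5.75 and 5.82 in MCD, a gap far wider than the spread within either group. The difference was 1.34 ± 0.25 (SE, limma adjusted p = 0.000317). Postn, which binds integrins and aids collagen cross-linking, was -1.83, -1.70, -2.11 and -1.90 in C and -1.13, -1.32, -0.88 and -0.34 in MCD. These groups did not overlap either, and the difference was 0.97 ± 0.31 (SE, limma adjusted p = 0.0199). The Postn call depended on the processing and on single livers. It was 0.49 (adjusted p = 0.161) after normexp and quantile normalization and 0.48 (adjusted p = 0.225) in the authors' normalized values, and its adjusted p was 0.0523 without C replicate 3 and 0.0858 without MCD replicate 4. Sparc, Lum and Dcn stayed past the threshold in every alternative run for them, with adjusted p of at most 0.00992, 0.014 and 0.0025. The second Sparc probe alone was not among these alternatives and did not pass (0.55, limma adjusted p = 0.242).

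The thrombospondins are secreted glycoproteins that bind CD36 and CD47, and Thbs1 can activate latent TGF-beta. Thbs1 was -4.76, -3.37, -3.81 and -3.06 in C and -1.85, -1.98, -2.26 and -2.10 in MCD. It differed by 1.70 ± 0.68 (SE, limma adjusted p = 0.0634), without overlap. Thbs2 differed by 1.19 ± 0.46 (SE, limma adjusted p = 0.0579). Fbn1, the main protein of microfibrils, differed by 1.15 ± 0.46 (SE, limma adjusted p = 0.0616). Their probes were dim on 1 or 2 of the C livers and well above background on all 4 MCD livers. These genes could enter the test through groups where they were bright, so a difference was favoured by the filter. All 3 passed the test after centring on the array median (adjusted p of 0.0328, 0.0272 and 0.0212) and in a fit of only these 2 groups. Centring on the median moved the median difference of all tested genes from -0.12 to 0.24. In all, 7 of 9 members had groups that did not overlap, against 28.3% of tested genes. Fn1, which joins integrins to collagen, was 7.67 ± 0.15 (SD, n = 4) in C and 7.80 ± 0.39 (SD, n = 4) in MCD, a difference of 0.13 with a 95% interval from -0.37 to 0.63.

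Tnc, which is made around healing tissue, was not well above background on any array with the probe across an intron and on 4 of 32 arrays with the second probe. No group had all 4 arrays above background, so it was not tested and no level is given for it.

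**Figure D2:**
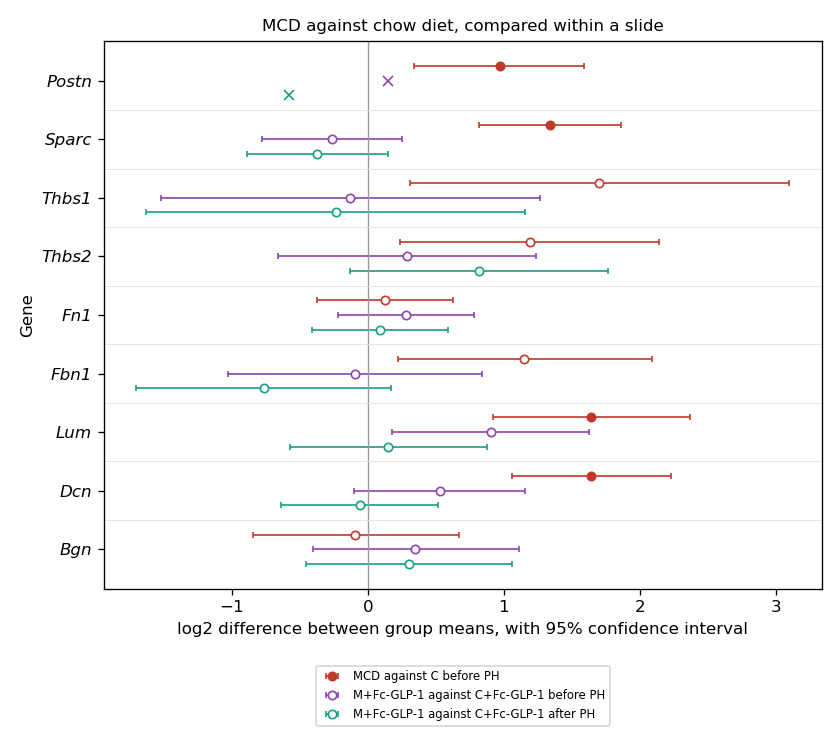
Log2 difference between MCD and chow group means (x axis) with 95% confidence interval for the 9 tested genes (y axis), in untreated mice before PH, Fc-GLP-1 mice before PH and Fc-GLP-1 mice after PH. Filled points passed an adjusted p of 0.05, open points did not and crosses are Postn values given without a test; the 4 filled points all belong to untreated mice.

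Genes of the same families were counted from lists chosen with earlier results of these data known. In MCD against C before PH, 26.3% of all tested genes were called, 10.9% of them all as higher, and the counts below stand beside those shares. Of 22 other tested matricellular genes, 5 were higher and 1 lower in this comparison. Smoc2, a relative of Sparc, was higher by 3.05 ± 0.50 (SE, limma adjusted p = 6.51e-05) and Ccn2, or CTGF, by 1.90 ± 0.42 (SE, limma adjusted p = 0.0013), while Vtn, a plasma protein of hepatocytes, fell by 0.68. Of 9 other tested leucine-rich proteoglycans, Omd was higher by 1.27, Chadl fell by 1.77 and Fmod fell by 1.02, and 6 did not pass. The microfibril partners had 2 of 13 higher (Mfap2 by 1.33 and Loxl2 by 1.18) and 1 lower (Ltbp4). Among 22 receptors for these proteins, Cd36, a thrombospondin receptor and fatty acid carrier, was higher by 2.21 and the integrin chain Itga4 by 2.18. The same list had 4 genes lower, among them Egfr at -1.36 and Sdc4 at -1.19. Of 15 tested enzymes for the sugar chains, 5 were higher and 1 lower. Chpf and Chpf2, which extend chondroitin chains, were higher by 1.62 and 1.13, and B3gat3, which completes the linker to the core protein, fell by 0.78. Medians of these 5 lists ran from -0.44 for the leucine-rich proteoglycans to 0.50 for the enzymes, beside -0.12 over all tested genes.

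Markers of several liver cell types differed in the same comparison, in which 26.3% of all tested genes were called. Kupffer cell markers were higher in 4 of 6, and their mean log2 level ran from 1.09 to 2.15 in C and from 2.29 to 4.00 in MCD livers. Fibrillar collagen genes were higher in 2 of 4, with means of 0.16 to 0.86 in C and 1.51 to 1.75 in MCD. Stellate cell markers were higher in 2 of 8 (Lrat and Hand2), with means of 0.10 to 0.47 and 0.43 to 0.89. None of 7 tested myofibroblast and portal fibroblast markers passed the test, and their means overlapped at -0.98 to -0.15 and -0.75 to -0.47. Hepatocyte markers were lower in 2 of 6, with means of 8.52 to 9.01 in C and 7.96 to 8.28 in MCD. What part these markers have in the differences of Dcn, Lum, Sparc and Postn was not tested.

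With Fc-GLP-1, the same diet comparison gave no call among 8 tested members. Before PH, M+Fc-GLP-1 and C+Fc-GLP-1 livers shared a slide, and limma called 0 of 8 members against 10.4% of all tested genes, with 1 of 8 at an unadjusted p under 0.05. That gene was Lum, at -0.13, 1.69, 1.04 and 0.25 in C+Fc-GLP-1 and 1.79, 1.85, 1.31 and 1.52 in M+Fc-GLP-1 livers. The difference was 0.91 ± 0.35 (SE, limma adjusted p = 0.1), and without C+Fc-GLP-1 replicate 2 it was 1.23 (adjusted p = 0.0301). Sparc differed by -0.26 (95% interval -0.78 to 0.25) and Dcn by 0.53 (95% interval -0.10 to 1.16). Postn, not tested here, was -1.69 ± 0.77 (SD, n = 4) in C+Fc-GLP-1 and -1.54 ± 0.08 (SD, n = 4) in M+Fc-GLP-1. Relatives of these genes did pass in this comparison. Omd was higher by 2.21, Tsku, another leucine-rich protein, by 1.96, Ccn2 by 1.99 and Chpf by 1.84, while Ccn4 fell by 1.91.

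After PH, M+Fc-GLP-1 and C+Fc-GLP-1 livers again shared a slide and 0 of 8 members were called by limma, with 0 of 8 at an unadjusted p under 0.05, against 12.8% of all tested genes. Thbs2 had the widest of these differences, 0.82 ± 0.46 (SE), and Fbn1 differed by -0.76 ± 0.46 (SE), and the groups overlapped for both. Postn, not tested, was 0.40, 0.21, 0.37 and -0.12 in C+Fc-GLP-1 and -0.55, -0.44, -0.57 and 0.11 in M+Fc-GLP-1. Smoc2 and Tsku were higher by 2.10 and 1.74, and Ccn4 fell by 2.21.

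Whether the diet difference itself depended on Fc-GLP-1 before PH was tested as an interaction, in which additive slide effects cancel. Sparc was the 1 of 8 members called, at -1.60 from what additive effects of diet and drug would give (SE 0.36, limma adjusted p = 0.0113), against 2.56% of all tested genes called lower. The Sparc levels behind it were 4.36 ± 0.15 in C and 5.70 ± 0.11 in MCD livers, and with Fc-GLP-1 they were 5.48 ± 0.36 on chow and 5.22 ± 0.37 on MCD (SD, n = 4 each). C livers were below all 12 livers of the other groups before PH. The value was -1.79 after normexp and quantile normalization (adjusted p = 0.0509) and -1.79 in the authors' values (adjusted p = 0.0612), and neither passed. It was -2.23 after median centring (adjusted p = 0.00189), and over all alternatives it ran from -2.23 to -1.42. Dcn had an interaction of -1.12 ± 0.42 (SE, limma adjusted p = 0.107), which passed after median centring (-1.75, adjusted p = 0.0111) and without M+Fc-GLP-1 replicate 4 (-1.55, adjusted p = 0.0286). Thbs1 and Fbn1 had values of -1.83 and -1.24 with adjusted p of 0.246 and 0.239. Postn, not tested, had a value of -0.82. The median over the 8 tested members was -1.01, beside 0.15 over all tested genes. In the same interaction Ccn4 was called lower at -2.75, Itga4 at -2.57 and Tlr2, which binds biglycan, at -2.61, while Met, which decorin binds, was called higher at 1.34. Kupffer cell markers were lower in 3 of 6, platelet markers in 2 of 4 and fibrillar collagens in 1 of 4, and their part in the Sparc value was not tested.

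A second probe of Sparc lies further along the same transcript and was well above background on all 32 arrays. It correlated with the tested probe at r = 0.66 over the 32 arrays. In C and MCD livers before PH it was -1.22, -0.82, -0.64 and -0.89 against -0.40, -0.43, -0.31 and -0.21. The groups did not overlap, but the difference of 0.55 ± 0.34 (SE, limma adjusted p = 0.242 over 29304 probes) did not pass the test. Its interaction of diet and Fc-GLP-1 was -1.23 ± 0.49 (SE, adjusted p = 0.124), and its change in C mice after PH was 0.65 ± 0.34 (SE, adjusted p = 0.213). The direction was thus shared by both probes, and the size and the call were not.

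**Figure D3:**
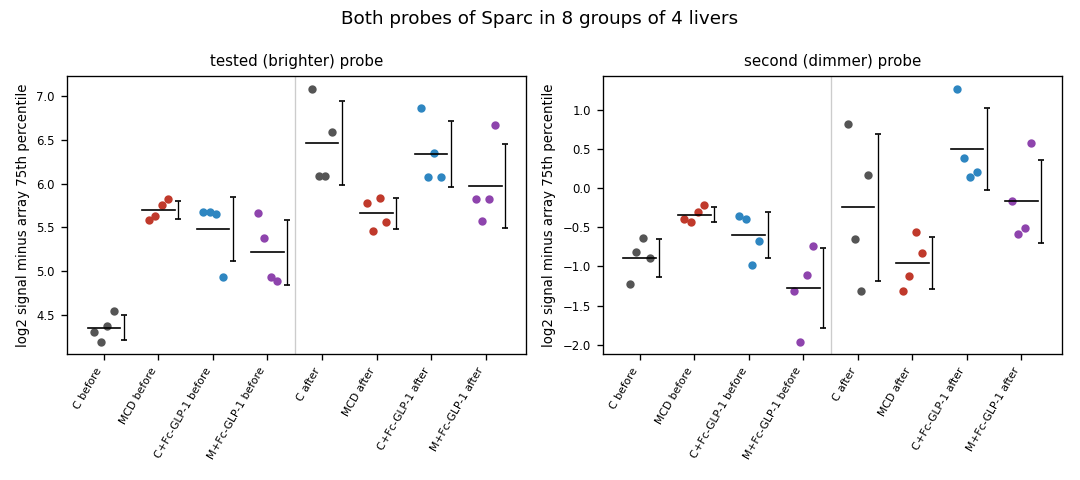
Log2 signal minus the array's 75th percentile (y axis) for both Sparc probes in each liver, by group (x axis); points are livers, bars group means and whiskers SDs. C before PH lies lowest on the tested probe, between 4.20 and 4.55, whereas on the second probe M+Fc-GLP-1 before PH holds the lowest liver, at -1.96.

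Against untreated mice on the same diet, Fc-GLP-1 before PH gave 1 call. These groups lay on different slides, so the slide cannot be told apart from the drug. Among C+Fc-GLP-1 livers Sparc was 5.67, 5.67, 5.65 and 4.94, above all C livers by 1.12 ± 0.25 (SE, limma adjusted p = 0.0211), against 0.953% of all tested genes called higher. The call was lost when both Sparc probes were averaged (0.71, adjusted p = 0.148), in a fit of these 2 groups (adjusted p = 0.0984) and without C replicate 2 or C+Fc-GLP-1 replicate 1, 2 or 3 (adjusted p of 0.0503 to 0.0544). On the second Sparc probe the difference was 0.29 ± 0.34 (SE, limma adjusted p = 0.698 over 29304 probes). Fn1 was higher by 0.33 (adjusted p = 0.495) and passed in the authors' values (0.80, adjusted p = 0.0365) and after normexp and quantile normalization (0.74, adjusted p = 0.0406). Platelet markers were higher in 2 of 4 in this comparison, and their part was not tested. In M+Fc-GLP-1 against MCD livers limma called 0 of 8 members, with 2 of 8 at an unadjusted p under 0.05, against 7.21% of all tested genes. Fbn1 was -1.41 ± 0.46 (SE, limma adjusted p = 0.0551) and did not overlap between the groups, at -2.17, -2.47, -2.29 and -2.19 in MCD and -3.25, -3.51, -4.70 and -3.33 in M+Fc-GLP-1. Of these treated livers, 3 of 4 were not well above background for Fbn1. It passed in 5 alternatives, with adjusted p from 0.0193 to 0.0414. Dcn was -0.82 (adjusted p = 0.0988) and passed without M+Fc-GLP-1 replicate 4 (-1.25, adjusted p = 0.0205) and after median centring (-1.16, adjusted p = 0.0292). Postn, not tested, lay between -1.65 and -1.47 in M+Fc-GLP-1 and between -1.32 and -0.34 in MCD livers. Smoc2 fell by 1.77, Ccn4 by 2.07, Cd36 by 1.56 and Col3a1 by 1.99, and Kupffer cell markers were lower in 3 of 6.

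The second question was what PH left behind. In untreated C mice 2 weeks after PH, Sparc, Fbn1 and Lum were higher than before it, by 4.28, 3.19 and 2.59 times, and no member was lower. This was 3 of 9 members, against 6.03% of all tested genes called higher, and 4 of 9 had groups that did not overlap, against 17.9% of tested genes. Slide, scanner and time cannot be told apart here, and the livers after PH are those of survivors. Sparc was 7.08, 6.08, 6.08 and 6.59 after PH, above every C liver before it, a difference of 2.10 ± 0.25 (SE, limma adjusted p = 9.42e-06). On the second Sparc probe the groups overlapped, and the difference of 0.65 ± 0.34 (SE, limma adjusted p = 0.213) did not pass. Fbn1 was -0.88, -2.15, -2.28 and -1.71 after PH against -4.34, -3.09, -3.81 and -2.48 before it, a difference of 1.67 ± 0.46 (SE, limma adjusted p = 0.0151), with 1 of the 4 livers before PH not well above background. Lum was 2.34, 1.16, 1.00 and 2.11 after PH, with a difference of 1.37 ± 0.35 (SE, limma adjusted p = 0.0106). On the tested probes of these genes, each group after PH lay above its group before PH.

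Postn in C mice was -0.44, -1.94, -1.03 and -0.70 after PH, 0.86 ± 0.31 (SE, limma adjusted p = 0.0578) above its level before PH, with 1 liver among those before PH. Without that liver, replicate 2, the difference was 1.16 (adjusted p = 0.0138), and it also passed after median centring (1.01, adjusted p = 0.029) and with a percentile over bright probes (1.02, adjusted p = 0.0333). With the replicate number as a block across all groups it was 0.86 (adjusted p = 0.037), and with the number shared within the arm as a block 0.86 (adjusted p = 0.0743). Thbs1 and Thbs2 differed by 1.53 and 0.99 with adjusted p of 0.127 and 0.149. Dcn differed by 0.48 ± 0.29 (SE, limma adjusted p = 0.263) with the main values and by 1.49 (adjusted p = 0.0021) after normexp and quantile normalization, and the cause of that gap was not tested. Fn1 and Bgn differed by -0.09 and 0.05. Without C after PH replicate 1, Fbn1 was 1.38 (adjusted p = 0.0745) and Lum 1.14 (adjusted p = 0.0573), so 1 of 9 members, Sparc, was called. Fbn1 was also lost without C before PH replicate 1 (adjusted p = 0.0618) and in a fit of these 2 groups (adjusted p = 0.0572), and Lum after normexp and quantile normalization (adjusted p = 0.071). The microfibril partners had 4 of 13 higher, with Emilin2 at 2.12 and Ltbp2 at 2.03, and the matricellular relatives Fstl1 and Fbln2 were higher by 1.61 and 1.56. The receptor list had 4 of 22 higher, led by Itga4 at 2.21. Kupffer cell markers were higher in 6 of 6, with means of 1.09 to 2.15 before and 2.78 to 4.60 after PH, fibrillar collagens in 3 of 4, and stellate cell and myofibroblast markers in 0 of 8 and 0 of 7, and their part was not tested.

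In untreated MCD mice no member passed the test after against before PH. Limma called 0 of 9, with 2 of 9 at an unadjusted p under 0.05, against 9.33% of all tested genes. Sparc differed by -0.04 (95% interval -0.56 to 0.48), Lum by 0.00 (95% interval -0.72 to 0.73) and Fbn1 by -0.08 (95% interval -1.01 to 0.86). For Sparc that interval lies below the change in C mice on the same probe, though the difference between the diets was not tested. Slide and scanner changed between the times in both diets and cannot be told apart from time. On the second Sparc probe the change was -0.62 in MCD and 0.65 in C mice (limma adjusted p = 0.292 and 0.213), and neither passed. Dcn was 6.79, 7.13, 7.22 and 7.0 after PH, below all 4 MCD livers before it, at -0.77 ± 0.29 (SE, limma adjusted p = 0.0871), but the difference was 0.01 (adjusted p = 0.994) after normexp and quantile normalization. Thbs2 was -1.04 ± 0.46 (SE, limma adjusted p = 0.166) and also did not overlap. In a fit of only these 2 groups it passed (adjusted p = 0.0278). Of the 22 matricellular relatives 0 were higher and 3 lower, among them Ccn1 and Ccn6, which fell by 1.72 and 1.83. Emilin2 was the 1 of 13 microfibril partners that passed, higher by 1.70, and 4 of 22 receptors were higher, with Cd36 at 1.49 and Itgb3 at 1.06. Stellate cell markers were lower in 2 of 8 (Reln at -1.24 and Lrat at -1.03), with means of 0.43 to 0.89 before and -0.14 to 0.35 after PH. Kupffer cell markers were higher in 1 of 6 (Marco at 2.61) and mesothelial markers in 1 of 3 (Msln at 3.26). Of 7 myofibroblast and portal fibroblast markers Pi16 was higher by 1.88 and Dpt fell by 1.92, and the part of these markers was not tested.

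After PH, Sparc was lower in MCD than in C mice. MCD livers were 5.78, 5.46, 5.84 and 5.56, below all C livers, with a difference of -0.80 ± 0.25 (SE, limma adjusted p = 0.0366). It was the 1 call among 9 members, all in the lower direction, against 6.1% of all tested genes. This call was lost in 4 of the planned settings and without any of C replicate 1 or 4 or MCD replicate 1, 2 or 4, with an adjusted p up to 0.159. On the second Sparc probe the groups overlapped, and the difference of -0.71 ± 0.34 (SE, limma adjusted p = 0.192 over 29304 probes) did not pass. Lum differed by 0.27 and Dcn by 0.39 with adjusted p of 0.683 and 0.422, and Postn by -0.07 with an adjusted p of 0.917. Each group had its own slide, so slide and diet cannot be told apart. Both groups were survivors of PH, and the part of survival was not tested. Fibrillar collagens were lower in 2 of 4 and myofibroblast markers in 2 of 7. Tsku and Smoc2 were higher by 2.39 and 1.90 and Fbln2 fell by 1.28.

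Under Fc-GLP-1 the change from before to after PH gave no call among the 8 tested members in either diet. It was 0 of 8 by limma in C+Fc-GLP-1 mice, with 3 of 8 at an unadjusted p under 0.05, against 0.831% of all tested genes (0.24% with the number shared within the arm as a block), and 0 of 8 in M+Fc-GLP-1 mice, with 3 of 8 unadjusted, against 1.71%. Fbn1 in C+Fc-GLP-1 mice was -3.99, -2.69, -2.98 and -4.74 before and -1.16, -2.15, -2.12 and -1.80 after PH, a difference of 1.79 ± 0.46 (SE, limma adjusted p = 0.0537). Of the livers before PH, 2 of 4 (-3.99 and -4.74) were not well above background. It passed in 4 alternatives, with adjusted p from 0.027 to 0.0497. Sparc differed by 0.86 (adjusted p = 0.0979) in treated chow mice and 0.75 (adjusted p = 0.123) in treated MCD mice, and Bgn by 0.84 (adjusted p = 0.266) and 0.79 (adjusted p = 0.286). The interaction of diet and time under Fc-GLP-1, in which additive slide effects cancel, had 0 of 8 members called by limma and 0 of 8 at an unadjusted p under 0.05, against 0.0939% of all tested genes (0.141% with that block).

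Postn, selected on these arrays, went from -0.99, -2.68, -1.90 and -1.19 to 0.40, 0.21, 0.37 and -0.12 in C+Fc-GLP-1 mice and from -1.47, -1.55, -1.65 and -1.49 to -0.55, -0.44, -0.57 and 0.11 in M+Fc-GLP-1 mice. Mean differences were 1.90 and 1.18. Markers moved in the same comparisons. In treated chow mice Col3a1 was higher by 2.00 (1 of 4 fibrillar collagens) and Marco by 2.40 (1 of 6 Kupffer cell markers). In treated MCD mice Msln was higher by 5.35 (1 of 3 mesothelial markers), Marco by 2.59, Pi16 by 2.36 (1 of 7 myofibroblast and portal fibroblast markers) and Col3a1 by 2.19. Stab2, 1 of 7 endothelial markers, fell by 1.08 there. Of the matricellular relatives Fbln2 was higher by 1.49 and Ccn1 fell by 1.68 in treated MCD mice, and 0 of 22 passed in treated chow mice. The part of these markers in the Postn values was not tested. In untreated MCD mice, which the choice did not use, Postn went from -0.92 ± 0.43 to -1.10 ± 0.33 (SD, n = 4 each), a difference of -0.18 ± 0.31 (SE, limma adjusted p = 0.782). Neighbouring groups overlapped throughout the order of Postn levels, from C+Fc-GLP-1 after PH at 0.21 through M+Fc-GLP-1 after PH at -0.36 to C before PH at -1.89.

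**Figure D4:**
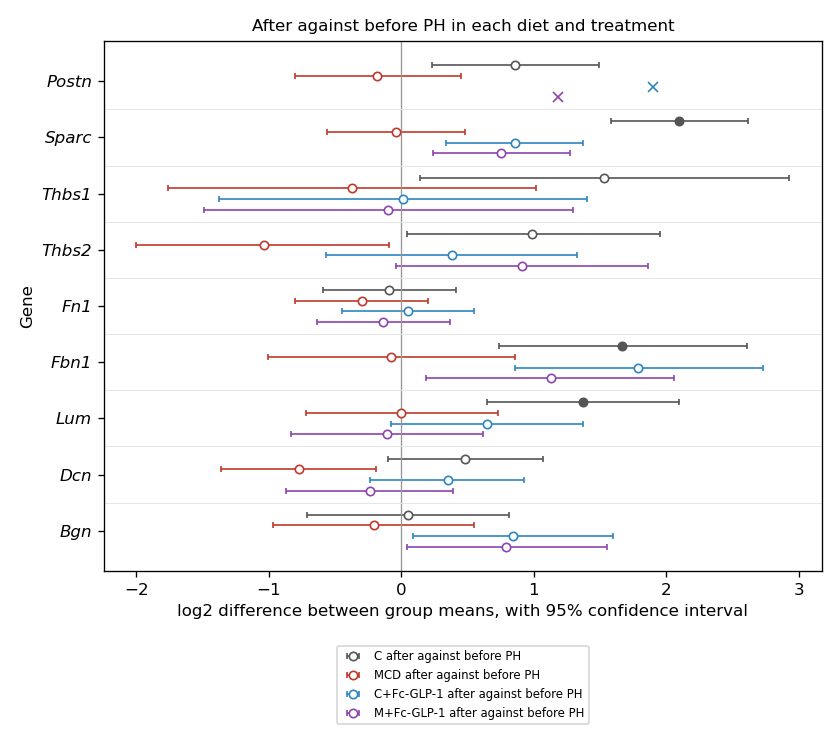
Log2 difference between group means after and before PH (x axis) with 95% confidence interval for the 9 tested genes (y axis), in each diet and treatment. Filled points passed an adjusted p of 0.05, open points did not and crosses are Postn values given without a test; the 3 filled points are Sparc, Fbn1 and Lum in C mice.

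Between livers with and without Fc-GLP-1 after PH, limma called 0 of 8 members on either diet, against 2.05% of all tested genes on chow (0 of 8 unadjusted) and 6.45% on MCD (2 of 8 unadjusted). Slides and scanners differed in both and cannot be told apart from the drug. Survival of PH also differed with the drug in the study, and its part was not tested. On MCD, Thbs2 was -2.26, -2.02, -3.04 and -1.70 with Fc-GLP-1 and -4.21, -3.15, -3.67 and -3.26 without, 1.32 ± 0.46 apart (SE, limma adjusted p = 0.0845) with no overlap. Fn1 was higher by 0.64 (adjusted p = 0.113) and passed without M+Fc-GLP-1 replicate 4 (0.86, adjusted p = 0.0351). Postn, not tested, was higher with Fc-GLP-1 by 1.24 on chow and 0.73 on MCD, with no overlap in either. It was chosen for its rise after PH in these Fc-GLP-1 groups, so that choice favoured such a gap. Comparisons that share a group, such as these and those against time, are not independent.

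Within groups, 3 livers after PH stood above the others for several members at once. C replicate 1, C+Fc-GLP-1 replicate 1 and M+Fc-GLP-1 replicate 4 held the highest Sparc, Thbs1, Fbn1 and Lum of their groups. Their means of 4 cholangiocyte markers were 0.34, 0.44 and 1.42, where every other liver after PH lay at -1.27 or below, and their fibrillar collagen means were 4.12, 3.89 and 3.04. These values move together and their part in the results was not tested. Without these 3 arrays, a choice made after seeing the data, Sparc, Fbn1 and Lum were still called in C mice after against before PH, with adjusted p of 2.15e-05, 0.0411 and 0.0309. Of the 3 arrays, only C replicate 1 is in that comparison. Leaving out that array alone lost the Fbn1 and Lum calls, as given above. The fit shares its spread over all groups, so leaving out the other arrays also changes these tests. Sparc in MCD against C mice after PH was no longer called (-0.59, adjusted p = 0.0691), and Fn1 in M+Fc-GLP-1 against MCD mice was (0.86, adjusted p = 0.0256).

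Across the 32 arrays, which share groups and slides, the members differed in whom they resembled. Sparc and Fbn1 had the closest pattern of any pair of members (r = 0.77, and 0.74 for deviations from group means). Lum followed Thbs1 (r = 0.67 and 0.66) and Fbn1 (r = 0.63 and 0.71). The neighbours Lum and Dcn had r = 0.52 over 31 arrays but 0.06 within groups, and Postn and Sparc 0.67 but 0.29 within groups. Fn1 ran against Thbs1 (r = -0.46 and -0.56).

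Among all other tested genes, Postn was most like Ppic (r = 0.79), Tspan6 (0.73), Adam15 (0.72), Slco3a1 (0.69) and Klk8 (0.68), with 0.58, 0.47, 0.31, 0.56 and 0.35 for deviations from group means. Sparc was closest to Col1a2 (r = 0.88), Ltbp2 (0.84) and Vim (0.83), genes of collagen, microfibrils and the mesenchymal cytoskeleton, with 0.73, 0.79 and 0.70 within groups. Lum was closest to Ifi27l2b (r = 0.87), Trem2 (0.84) and Vcam1 (0.83), and Fbn1 to Cd300c2 (0.86), Armcx6 (0.82) and Fgl2 (0.81). Thbs1 had Sh3bgrl3 (0.77) and Hip1 (0.76) and Thbs2 had Lhfp (0.75), Emp1 (0.68) and Cd200 (0.68). Dcn was nearest to Golga4 (0.81), Rims3 (0.78) and Arl14ep (0.75), and Bgn to Zfp773 (0.71) and Tnfsf12 (0.67). Fn1 stood with Mpc2 (0.81) and Acadvl (0.81), both mitochondrial genes. Thbs1, Bgn and Fn1 also had 1 probe each with no gene name here among their nearest 3. These are descriptions over 32 arrays, 31 for Dcn, with no test.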

How the data were processed

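Scanner files of 32 one-colour 60-mer arrays and a table of normalized values were used. The authors deposited processed signal intensity per spot, which per the file headers was background subtracted and detrended within the array, and log2 values that the authors normalized with limma, separately before and after PH as the values show; all 32 columns matched their own array. The well-above-background and outlier flags in the files are other values of the scanner software.

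Log2 of the processed intensity minus the 75th percentile of 59305 non-control spots was the main value. Flagged spots were left out. A probe entered the test if some group had it well above background on each of its 4 arrays, and a gene with several such probes was represented by the one with the highest mean signal. RefSeq accessions named 27656 of 55681 probes. The means of the 8 groups were fitted with limma 3.58.1 (R 4.3.3), with Benjamini-Hochberg adjustment over 21290 genes, 14 comparisons and a threshold of 0.05. Replicates are labelled as biological. In simulated data for MCD against C before PH, 88% of 2-unit and 27% of 1-unit log2 changes were recovered among 21290 genes. Only 200 genes were changed in that simulation. In the real comparison 26.3% of tested genes were called, so recovery there may differ. Members, gene lists and tests were chosen with earlier results of these data known. Named genes were all members, up to 2 called genes per list, comparison and direction, and the genes most like each member.

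Alternatives were normexp (offset 50) with quantile normalization, median centring, a percentile over bright probes, the authors' values within a time, no filter, mean of probes, only the groups compared, a replicate block and leaving out each array. Added after seeing the data were a fit without 3 arrays and a block on the number that livers before and after PH of 1 arm share. Amino acid sequences and the promoters of Thbs1, Fn1, Lum and Dcn were not used here.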

Additional observations from a re-analysis of the deposited data

Results flagged for a closer look

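In 3 of 71 sets of 4 values checked, a single liver lay far from the rest of its group, and chance alone would mark about 1 in 20 such sets. Sparc in C+Fc-GLP-1 before PH replicate 4 was 4.94, where the other livers lay between 5.65 and 5.67. Thbs1 in C+Fc-GLP-1 after PH replicate 1 was -0.96, where the others lay between -3.69 and -3.28. Thbs2 in MCD before PH replicate 1 was -2.26, where the others lay between -2.63 and -2.58.

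On the tested Sparc probe, the effect of diet before PH differed with Fc-GLP-1, by an interaction of -1.60 (limma adjusted p = 0.0113). It did not pass after normexp and quantile normalization or in the authors' values. The second Sparc probe gave -1.23 (limma adjusted p = 0.124), which did not pass either. On the tested probe, Sparc was higher in MCD than in C mice before PH (1.34) and lower after PH (-0.80). Each time all 4 livers of a group lay on one side, and the difference between the times was not tested. On the second Sparc probe the groups after PH overlapped, and the difference of -0.71 (limma adjusted p = 0.192) did not pass. Thbs2 in M+Fc-GLP-1 against MCD mice was -0.64 before and 1.32 after PH, without overlap at either time. Neither value passed the test, the groups lay on different slides, and the difference between the times was not tested. Before PH the nearest livers were -2.71 and -2.63. Thbs2 was well above background on 2 of 4 M+Fc-GLP-1 arrays before PH and 3 of 4 MCD arrays after PH. Postn in the same comparisons was -0.62 before and 0.73 after PH, without overlap and not tested, and it was chosen by these arrays.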

How the results depend on the processing

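Over all members and comparisons, 1852 of 2050 single values under the alternatives kept their direction and their side of the threshold. Of the rest, 27 lost a call, 33 gained one, 138 moved without a call, and 0 reversed a called direction. Only results called in the main fit could lose a call. Those were few, so the 27 are not to be read as a share of all 2050. Counts of called members moved as follows, and the causes were not tested. In MCD against C before PH, 4 calls became 7 after median centring and 7 in a fit of only the groups compared, and 3 to 5 when single arrays were left out. In C+Fc-GLP-1 against C before PH, 1 call became 2 with the authors' values, 2 after normexp, 0 with averaged probes and 0 with only the groups compared (0 to 1 leaving out arrays). In M+Fc-GLP-1 against MCD before PH, 0 became 1 with the authors' values, after normexp, with no filter and with only the groups compared, and 2 after median centring (0 to 1 leaving out arrays). The diet by drug interaction before PH went from 1 to 0 with the authors' values and after normexp and to 2 after median centring (1 to 2 leaving out arrays). In MCD against C after PH, 1 became 0 after median centring, with averaged probes, with no filter, with only the groups compared and without the 3 arrays high for cholangiocyte markers (0 to 1 leaving out arrays). In M+Fc-GLP-1 against MCD after PH, 0 became 1 without those 3 arrays (0 to 1 leaving out arrays). In C mice after against before PH, 3 became 1 to 4 leaving out arrays. In MCD mice after against before PH, 0 became 1 with only the groups compared. In C+Fc-GLP-1 mice after against before PH, 0 became 1 with the percentile over bright probes, with no filter and after normexp (0 to 1 leaving out arrays), and M+Fc-GLP-1 against C+Fc-GLP-1 before PH had 0 to 1 leaving out arrays.

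Arrays with the same replicate number in different groups did not deviate together (mean r of 0.0173 over 112 pairs, beside -0.00532 over 336 pairs with different numbers). The same held for livers before and after PH of 1 arm (0.0128 over 16 same-number pairs, -0.0041 over 48 others). With a replicate block, C mice after against before PH had 4 members called, Postn being added (0.86, limma adjusted p = 0.037), and the other counts were unchanged. A block on the number shared within an arm changed no call among the members, while calls over all genes in C+Fc-GLP-1 mice after against before PH went from 177 to 51 and those of the diet by time interaction from 20 to 30.

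Depth of signal limits Thbs1, Thbs2, Fbn1 and Tnc, whose probes were near background on part or all of the arrays. With 4 arrays a group, changes of 1 on the log2 scale were mostly missed in simulated data.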
